A study of Mus musculus with 8 samples.

Results

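The cytosolic ribosomal protein genes encode the proteins of the ribosomes that translate nuclear mRNA. They were taken by name: protein-coding genes of the count table whose symbol starts with Rpl or Rps followed by a number, the stalk genes Rplp and Rpsa, without the Rps6k kinases and without names that end in -ps and a number. This gave 90 genes of the 22430 listed. Of these, 46 encode proteins of the large subunit and 31 proteins of the small subunit. Another 7 are paralogs (Rpl3l, Rpl7l1, Rpl10l, Rpl22l1, Rpl36al, Rpl39l and Rps27l) and 4 are named as retrotransposed copies (Rpl27rt, Rpl35rt, Rplp1rt and Rps27rt). The last 2, Rps19bp1 and Rps23rg1, pass the name rule without being ribosomal proteins, since Rps19bp1 encodes a protein that binds RPS19 and Rps23rg1 is a gene that arose from an Rps23 copy. Polyadenylated RNA was sequenced from the brains of untreated male C57Bl/6JRj mice, 4 of them aged 6 months (6m, young) and 4 aged 24 months (24m, old). RNA came from homogenized hemispheres, so all regions and cell types of the brain were pooled in each library. Each library is 1 animal, and p-values measure the spread between the 4 animals of an age. In such bulk tissue, fewer cells of a type and less RNA per cell cannot be told apart.

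A ribosome joins a small subunit, which reads the mRNA, to a large subunit, which makes the peptide bond, and each of its proteins is present as a single copy except for the acidic stalk proteins. The mRNAs of these proteins carry a 5′ terminal oligopyrimidine (TOP) tract, a cap-adjacent C followed by a run of pyrimidines, through which mTOR signalling and the binding protein Larp1 control their translation as a group. In neurons they are also found in dendrites and axons, and several subunits have a close paralog whose use is restricted to certain tissues, such as Rpl3l in muscle and Rpl10l and Rpl39l in testis.

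Start sites of 67 of the 90 genes were matched by symbol in the RefSeq promoter table (build GRCm38.p6). A TOP tract was searched on the transcribed strand as C followed by at least 4 bases that were each C or T, starting within 5 bases of the annotated start. It was found in 31 of the 67 genes (46.3%), in 27 of 57 subunit genes (47.4%) and in 21.2% of the 27025 genes of the table. A member with several annotated starts was counted if any matched, and Rpl35a, Rps21, Rps24 and Rps27l also have starts without a tract. In Rpl19 the tract lay wholly before the start. A match describes these letters at the annotated start, which need not be the start used in brain, and is no evidence of regulation. Shown 5′ to 3′ are the 15 bases before the start and the first 15 transcribed bases of 8 genes, with the tract in capitals: 4 subunit genes, 2 paralogs, and Rpl4 and Rpl7l1, the members whose levels departed from the class.
Rps6 (chr4:86857353-86857382, minus strand): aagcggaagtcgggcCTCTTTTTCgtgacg
Rpl38 (chr11:114668565-114668594, plus strand): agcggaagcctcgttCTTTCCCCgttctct
Rplp2 (chr7:141447636-141447665, plus strand): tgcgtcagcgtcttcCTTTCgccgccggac
Rps27 (chr3:90213634-90213663, minus strand): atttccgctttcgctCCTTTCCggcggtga
Rps27l (chr9:66946071-66946100, plus strand): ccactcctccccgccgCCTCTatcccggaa
Rpl22l1 (chr3:28805493-28805522, plus strand): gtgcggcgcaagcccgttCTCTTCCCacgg
Rpl4 (chr9:64173372-64173401, plus strand): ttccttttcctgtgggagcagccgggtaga
Rpl7l1 (chr17:46782642-46782671, minus strand): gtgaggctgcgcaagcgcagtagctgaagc
Capitals begin at the matching C nearest the annotated start. That C was the annotated first base in Rps6, Rpl38, Rplp2 and Rps27, and lay 1 and 3 bases after it in Rps27l and Rpl22l1. In Rps6, Rplp2 and Rps27 a C that also matches lies before the start, so the pyrimidine run begins upstream of the capitals. Rpl4 and Rpl7l1 had none within the 5 bases searched on either side of the start, although the Rpl4 window holds a pyrimidine run further upstream.

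Libraries held 63460940 to 103462414 counts, the deepest being 24m replicate 1, and 88 of the 90 genes had more than 5 counts in at least 4 libraries and were tested. Rpl10l, a retrocopy of Rpl10 known from testis, had 0 counts in all 8 libraries, where a 0 allows up to 3 counts per library. Rplp1rt had 1 count, in 24m replicate 3. The library of 24m replicate 1 stood apart from the other aged animals, since it held the highest 24m value of all 88 tested genes, and the main results below are therefore given with and without it.

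Ribosomal protein transcripts were lower at 24m, nearly as a block. Of the 88 tested genes, 85 (96.6%) were called lower and 0 higher, where a call needs an adjusted p (edgeR) no larger than 0.05 together with a fold change of 0.58 or more in size on the log2 scale. Over all 16730 tested genes, 18.3% were called lower and 25.3% higher. The median log2 fold change of the 88 genes was -1.07, which is 47.8% of the 6m level, against -0.0034 for all tested genes, and its quartiles were -1.18 and -0.92. No gene had a fold change above 0, none was higher at an unadjusted p below 0.05, and DESeq2 called 0 higher. In 85 genes every 24m library lay below every 6m library, which was the case for 26.8% of all tested genes. Without 24m replicate 1 the median was -1.28 and 86 genes were called lower, among them the same 85, and the fold change of each of the 88 was more negative than with it. It was then -1.46 for Rplp1 and Rplp2, -0.93 for Rplp0, -1.20 for Rpsa, -1.54 for Rps29, -1.64 for Rpl38, -0.83 for Rpl3 and -0.45 for Rpl4. When libraries were scaled by their totals alone, which moved the median of all genes to 0.21, the members' median was -0.86 and 79 of 88 were called lower, against 10.4% of all genes. With a trend of fold change over coding length removed, described below, 52 were called lower (16.6% of all genes), at a median of -0.61. With canonical transcript length 25 were (14.4% of all genes), at a median of -0.40.

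**Figure D1:**
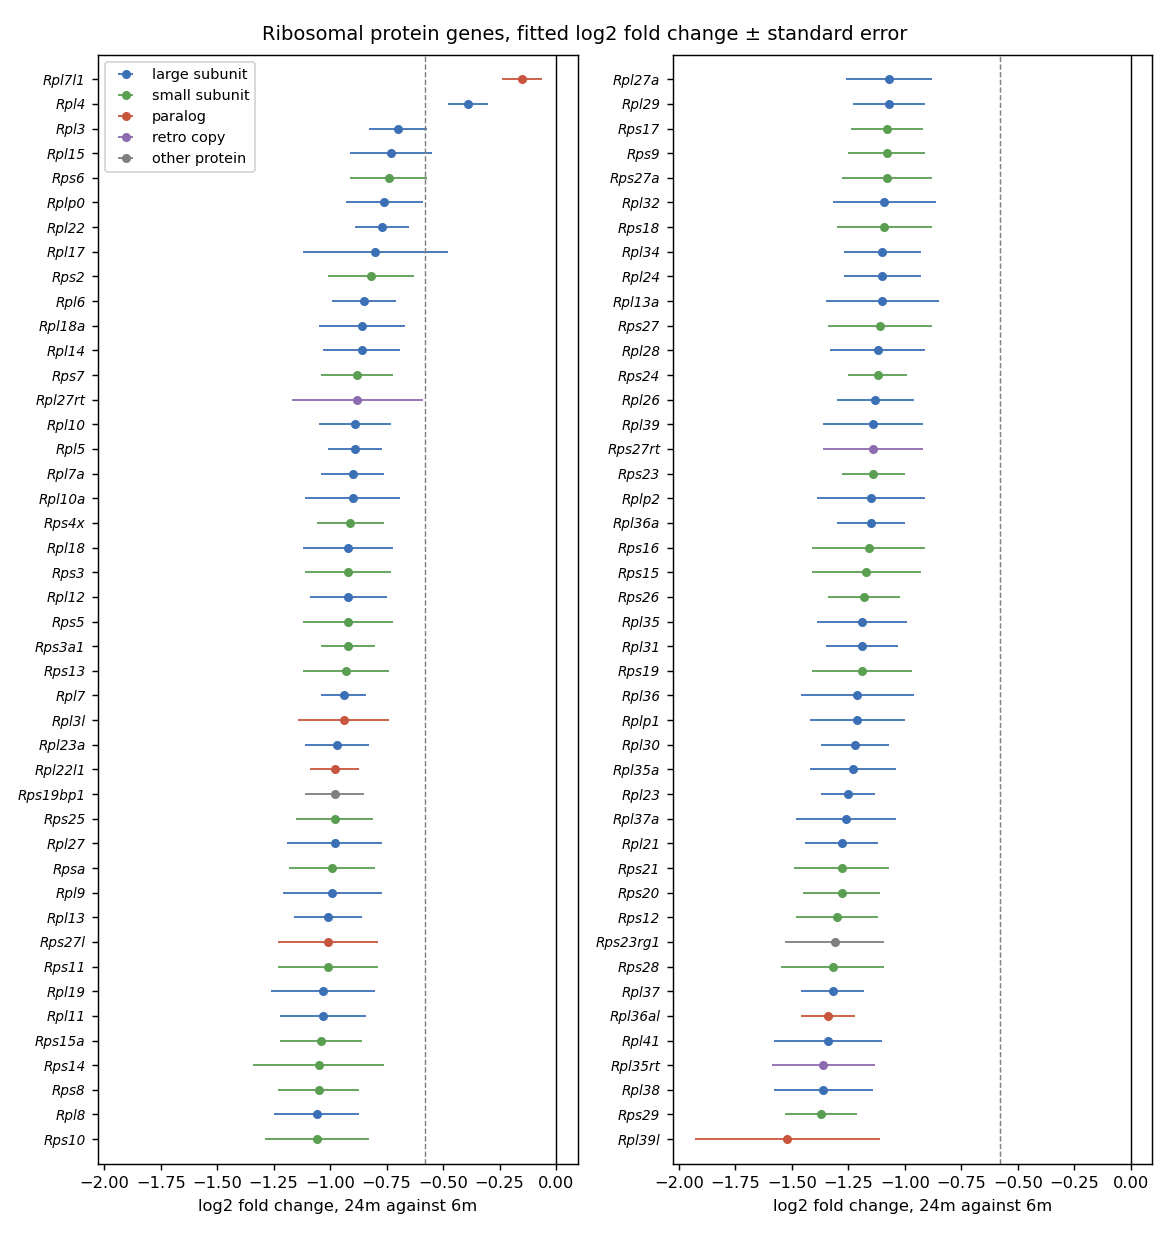
Fitted log2 fold change of 24m against 6m (x axis) with its standard error for each of the 88 tested genes, coloured by class, in 2 columns from the smallest fall (top left) to the largest (bottom right). The solid line is 0 and the dashed line the fold threshold of -0.58; Rpl7l1 and Rpl4 sit to the right of the dashed line and all other genes to its left, Rpl17 among them although it missed the adjusted p.

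The summed counts show the size of the shift in each animal. Members took 6.1%, 5.54%, 5.67% and 5.98% of library counts in 6m replicates 1 to 4, a mean of 5.82 ± 0.262% (SD, n = 4). At 24m they took 4.47%, 3.08%, 2.97% and 2.61%, a mean of 3.28 ± 0.816% (SD, n = 4). The ages did not overlap, and 24m replicate 1 lay between the young animals and the other 3 aged ones, whose mean was 2.89%. The ratio of summed large subunit to summed small subunit counts was 1.39 ± 0.00882 at 6m and 1.42 ± 0.0228 at 24m (SD, n = 4 each). It was 1.38 in 24m replicate 1 and 1.43 in each of the other aged animals, above the 1.38 to 1.4 of the young ones, and this difference was not tested.

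**Figure D2:**
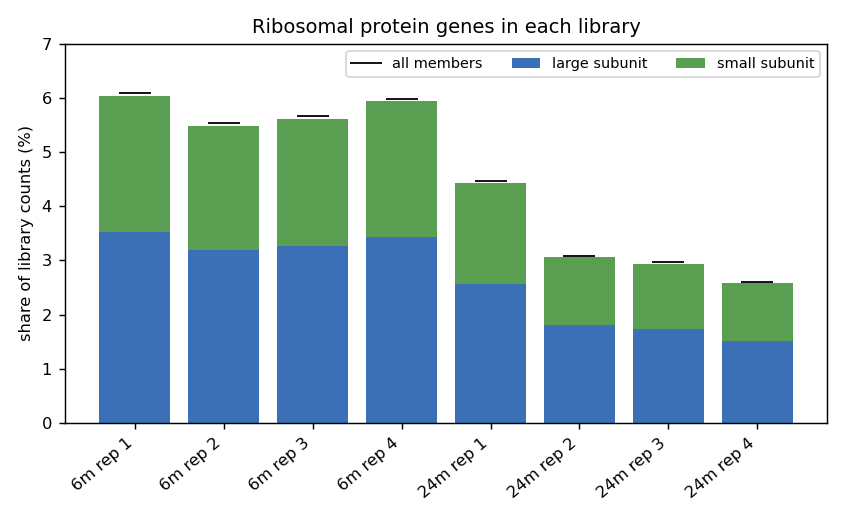
Share of library counts (y axis, %) taken by large and small subunit genes (stacked bars) and by all 90 members (black marks) in each of the 8 libraries. The 6m libraries sit between 5.54% and 6.1% and the 24m libraries between 2.61% and 4.47%.

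The 2 subunits gave much the same picture gene by gene. Of the large subunit genes 44 of 46 were called lower, the fold changes ranging from -1.36 to -0.39 with a median of -1.06 (log2). All 31 small subunit genes were called lower, with a median of -1.08 and a range of -1.37 to -0.74. Over all tested genes, 18.3% were called lower. Levels per kilobase of coding sequence spanned 17188 CPM (counts per 1e+06 of the TMM-scaled library size) in Rpl41, whose product is the smallest ribosomal protein, to 391 in Rpl22 at 6m, and 6798 to 229 in the same genes at 24m. The median level over the 77 subunit genes was 1463 CPM per coding kilobase at 6m and 713 at 24m. The order of the levels was nearly kept, with a Spearman rho of 0.975 between the ages across the 77 genes, which share the same libraries and are not independent replicates. By this measure the first ranks, Rpl41, Rplp1 and Rpl13a, were the same at both ages. Counts per gene are not limited to coding bases, so the measure raises genes with short coding sequences, such as Rpl41 with 75 bases. Before division by coding length, the 6m mean of Rpl41 was 1289 CPM, below 2969 for Rpl13a and 2200 for Rplp1.

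Groups of members with a shared place or role, put together after their values had been seen, were mostly called lower, as were 18.3% of all tested genes. Of 8 genes whose proteins line the rim of the peptide exit tunnel, 7 were called lower, with log2 fold changes from -1.19 for Rpl35 to -0.77 for Rpl22, and the remaining gene was Rpl17. Rpl5 (-0.89 ± 0.12 SE, edgeR adjusted p = 0.000224) and Rpl11 (-1.03 ± 0.19, adjusted p = 0.00125), which bind the 5S rRNA and can hold the ubiquitin ligase Mdm2, were both lower. So were Rps2 (-0.82) and Rps3 (-0.92), which form the mRNA entry channel. All 9 genes first linked to Diamond-Blackfan anaemia, an inherited failure of red cell production, were lower, from -1.23 for Rpl35a to -0.88 for Rps7. The 4 X-linked members, Rpl10, Rpl36a, Rpl39 and Rps4x, ranged from -1.15 to -0.89. With a smooth trend of fold change over coding length removed from each library, 4 of the 8 tunnel rim genes, 5 of the 9 anaemia genes and 2 of the 4 X-linked genes were called lower, against 16.6% of all genes. Rps2 was not called on quantile-normalized counts (-0.50) or with the trend over exonic (-0.32) or canonical transcript length (-0.17) removed, and Rpl11 was not called with canonical length (-0.48).

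The P stalk of the large subunit recruits the elongation factors. Rplp0 is its base and Rplp1 and Rplp2 are the acidic proteins that dimerize on it. Rplp1 measured 2326, 1993, 2054 and 2427 CPM in 6m replicates 1 to 4 and 1410, 892, 847 and 648 CPM in 24m replicates 1 to 4. Rplp2 measured 819, 661, 692 and 763 CPM at 6m and 528, 293, 280 and 224 CPM at 24m. Rplp0 measured 812, 707, 744 and 853 CPM at 6m and 627, 448, 420 and 348 CPM at 24m. In each of the 3 genes all aged animals lay below all young ones, with 24m replicate 1 nearest to them. The fitted log2 fold changes were -1.21 ± 0.21 (SE) for Rplp1 (edgeR adjusted p = 0.000948), -1.15 ± 0.24 for Rplp2 (0.00225) and -0.76 ± 0.17 for Rplp0 (0.00316). Rplp0 was not called when libraries were scaled by their totals alone (-0.55) or quantile-normalized (-0.44), nor with the trend over exonic (-0.50) or canonical transcript length (-0.22, adjusted p = 0.0509) removed. Rplp1 lost the call with the same length trends removed (-0.47 and -0.35), and Rplp2 with canonical (-0.46) or coding length (-0.57). Rpsa, a small subunit protein also known as the laminin receptor precursor, measured 1827, 1578, 1705 and 1979 CPM at 6m and 1272, 849, 779 and 669 CPM at 24m. It was lower by -0.99 ± 0.19 on the log2 scale (edgeR adjusted p = 0.00142), with no overlap between ages.

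Among subunit genes, the most negative fold changes belonged to small proteins. Rps29 (chr12:69204495-69205960 in GRCm39), a zinc-binding small subunit protein of 56 residues, measured 847, 726, 748 and 764 CPM at 6m and 402, 288, 277 and 224 CPM at 24m. All aged animals lay below all young ones (log2 fold change -1.37 ± 0.16 SE, edgeR adjusted p = 0.000137). Rpl38 (chr11:114559350-114563166), a large subunit protein known for its part in translating Hox mRNAs in the embryo, measured 567, 449, 449 and 514 CPM at 6m. At 24m it measured 297, 174, 167 and 133 CPM, again with no overlap (-1.36 ± 0.22, adjusted p = 0.000699). Rpl41, named for its top level per coding kilobase after its values had been seen, measured 1503, 1129, 1212 and 1313 CPM at 6m and 800, 472, 435 and 332 CPM at 24m (-1.34 ± 0.24, adjusted p = 0.00111). With the trend over canonical transcript length removed, Rps29 (-0.47), Rpl38 (-0.48) and Rpl41 (-0.49) all lay under the fold threshold, as did Rps29 (-0.56) and Rpl41 (-0.47) with coding length.

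At the other end, 3 tested genes were not called. Rpl4 (chr9:64080618-64086351), the longest member with 419 residues and a lining of the exit tunnel, measured 734, 737, 759 and 721 CPM at 6m and 641, 527, 533 and 553 CPM at 24m. The ages did not overlap, but the difference (-0.39 ± 0.09 SE on the log2 scale, edgeR adjusted p = 0.00371) missed the fold threshold, as it did in all alternatives but the removal of the trend over GC content (-0.60, adjusted p = 0.00176), with values up to -0.03 (adjusted p = 0.756). Rpl7l1 (chr17:47084824-47093606), a relative of Rpl7 known from large subunit precursors, measured 50.3, 49.6, 50.5 and 53.6 CPM at 6m and 52.2, 43.7, 46 and 42.6 CPM at 24m. Its ages overlapped, and the log2 difference (-0.15 ± 0.09, adjusted p = 0.164) changed sign when libraries were scaled by their totals alone (0.07). Rpl17 was the most scattered of the 3, at 416, 374, 319 and 491 CPM at 6m and 422, 162, 134 and 203 CPM at 24m. Its log2 difference was -0.80 ± 0.32 (adjusted p = 0.0532). Without 24m replicate 1, the animal at 422 CPM, it was -1.26 (adjusted p = 3.97e-05), and Rpl17 was then called lower. It was also called by DESeq2 (-0.81, adjusted p = 0.0224), by limma-voom (-0.93, adjusted p = 0.0263), with the replicate block (-0.94, adjusted p = 0.00881) and with the trend over GC content removed (-0.88, adjusted p = 0.0406). Rpl17 also has 11 annotated pseudogenes named after it, and whether their reads were kept apart is not given in the sources used here.

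Rpl3, Rpl15 and Rps6 had the next smallest falls. Rpl3, a large subunit protein near the peptidyl transferase centre, measured 1812, 1699, 1697 and 1865 CPM at 6m and 1378, 1040, 1041 and 881 CPM at 24m (log2 fold change -0.70 ± 0.13, edgeR adjusted p = 0.00148). Rpl15 measured 533, 478, 489 and 528 CPM at 6m and 443, 278, 266 and 233 CPM at 24m (-0.73 ± 0.18, adjusted p = 0.00581). Rps6, the substrate of the S6 kinases, measured 1018, 916, 927 and 1104 CPM at 6m and 834, 543, 530 and 460 CPM at 24m (-0.74 ± 0.17, adjusted p = 0.00447). None of the 3 overlapped between ages. All 3 lost the call when quantile-normalized counts were tested with DESeq2, at log2 fold changes of -0.37, -0.48 and -0.43, and when libraries were scaled by their totals alone, at -0.49, -0.53 and -0.54, all below the fold threshold. They also lost it with the trend over canonical transcript length removed, at -0.15 for Rpl3 (adjusted p = 0.0632), -0.56 for Rpl15 (0.00689) and -0.00 for Rps6 (0.986). With the trend over coding length removed Rpl15 (-0.43) and Rps6 (-0.54) were not called, nor was Rpl15 with exonic length (-0.47).

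**Figure D3:**
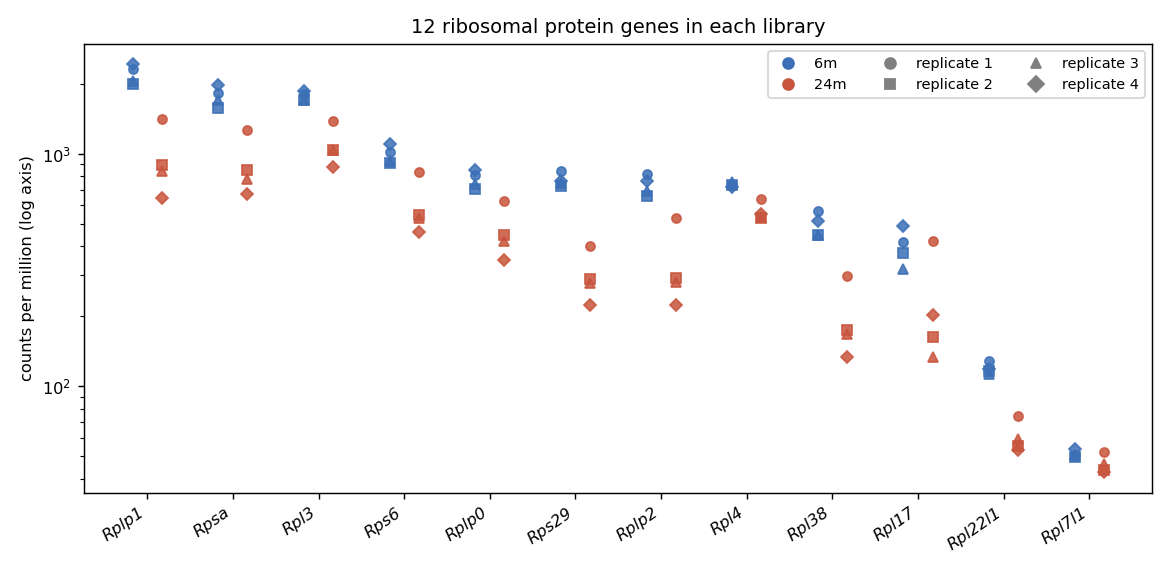
CPM (y axis, log scale) of 12 genes in each library, 6m in blue and 24m in red, with the marker shape giving the replicate. In Rpl4 and Rpl7l1 the ages lie close together, Rpl17 overlaps through 24m replicate 1 at 422 CPM, and the other genes show all red points below the blue ones.

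To see which members moved differently from the class, the same test was run with the library size set to the summed counts of the 88 genes, which does not depend on how the rest of the library was scaled. Only Rpl4 and Rpl7l1 were called, both higher relative to the class, and 0 were called lower. In this frame, where all genes shift upward by a median of 1.10, 73.7% of all tested genes were called higher and 0.239% lower. Rpl4 made up 11, 12.7, 12.7 and 10.7 per mille of the members' counts at 6m and 14.4, 18.8, 19.5 and 24 per mille at 24m. All aged animals lay above all young ones, and the relative log2 fold change was 0.70 ± 0.15 (SE, edgeR adjusted p = 0.0023). Without 24m replicate 4 it was 0.57 (adjusted p = 0.00374), just under the fold threshold. Rpl7l1 made up 0.756, 0.858, 0.847 and 0.795 per mille at 6m and 1.17, 1.56, 1.68 and 1.85 per mille at 24m, a relative log2 fold change of 0.94 ± 0.16 (adjusted p = 0.000685). After removal of the trend over coding length, Rpl4, the longest member, stood at -0.47 and Rpl7l1 at 0.07, against a median of -0.61 over the members. Of the 88 genes, 63 kept within 0.2 of the class on the log2 scale. With no fold threshold, 11 members passed the adjusted p above the class, Rpl4 and Rpl7l1 among them, and 14 passed it below the class. Those below included Rps29 (-0.33 ± 0.08, adjusted p = 0.00473) and Rpl38 (-0.35 ± 0.09, adjusted p = 0.00468), both by less than the fold threshold.

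Fold change followed the length of the coding sequence. Across the 77 subunit genes, Spearman's rho between log2 fold change and coding length was 0.811, with 0.812 in the 46 large subunit genes and 0.794 in the 31 small subunit genes. It was 0.775 without 24m replicate 1, and 0.796 over 75 genes without Rpl3 and Rpl4. The 10 shortest genes (Rpl41 to Rpl36, 75 to 315 coding bases) had a median log2 fold change of -1.30 and a range of -1.37 to -1.11. In the 10 longest (Rps3a1 to Rpl4, 792 to 1257 coding bases) the median was -0.87 and the range -0.99 to -0.39. By contrast, rho was -0.027 with exonic GC content, 0.203 with the mean level and 0.199 with the annotated canonical transcript length, which for several members includes long alternative ends. These are descriptions over genes that share the same libraries.

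**Figure D4:**
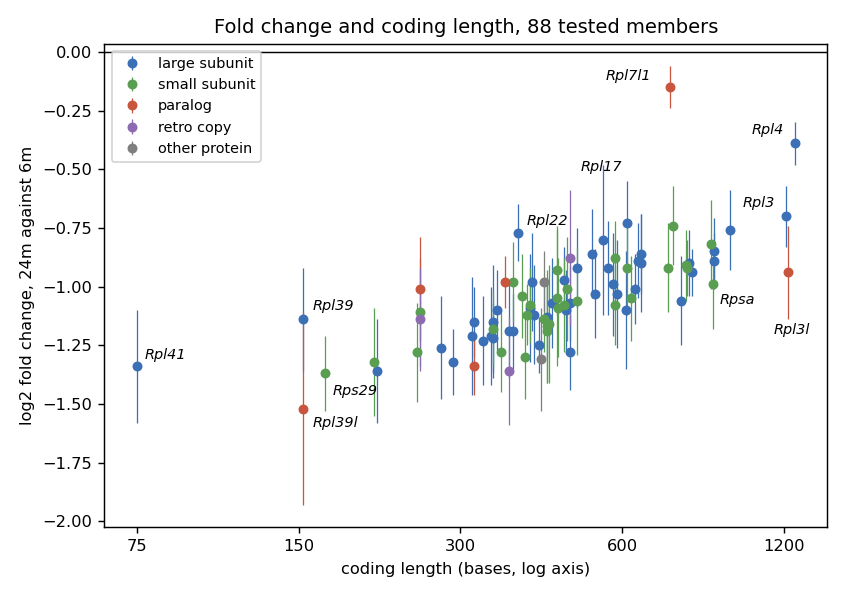
Fitted log2 fold change of 24m against 6m (y axis, with standard error) against coding length in bases (x axis, log scale) for the 88 tested genes, coloured by class. The 10 shortest subunit genes have a median of -1.30 and the longest gene, Rpl4, is at -0.39, with Rpl7l1 above the trend.

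The same direction held over the whole transcriptome, with a Spearman rho of 0.385 across 16609 tested genes with a coding length. Ranked by coding length and divided into 3 equal groups, 35.6% of the shortest genes (up to 1005 bases) were called lower, against 12.2% of the middle and 6.95% of the longest group. Of the 88 members, 85 were in the shortest group, of which 83 were called lower, and their median coding length was 448 bases against 1356 for all tested genes. By exonic length, the summed extent of all annotated exons, 3 such groups had 33%, 13.8% and 7.99% called lower from short to long. When a smooth trend of fold change over length was removed from each library, the members' fall became smaller and lost part of its calls, and the cause of the trend was not tested. With the trend over exonic length removed, the median was -0.75 and 59 of 88 were called lower (17.2% of all genes). A further 3 trends were chosen after seeing the data. With coding length the median was -0.61 with 52 called lower (16.6% of all genes), and with the coding length trend of the other genes only it was -0.63 with 62 called lower (16.9%). With canonical transcript length it was -0.40 with 25 called lower (14.4%). No member was called higher in any of them. Of the members described in full, Rpsa and Rpl36al were called lower with each of the 4 trends removed.

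Paralogs were compared with their parent gene within each library, as the log2 ratio of counts plus 0.5 per coding kilobase, which needs no scaling between libraries. Of 9 pairs fixed, 7 could be tested. Rpl10l was at 0 in all libraries, and Rps4l was not analysed here. The exact permutation test over the 70 assignments of animals (two-sided) cannot go below p = 0.0286. That value was reached by 3 pairs and became 0.0667 after adjustment over the 7, so no pair passed at 0.05.

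**Figure D5:**
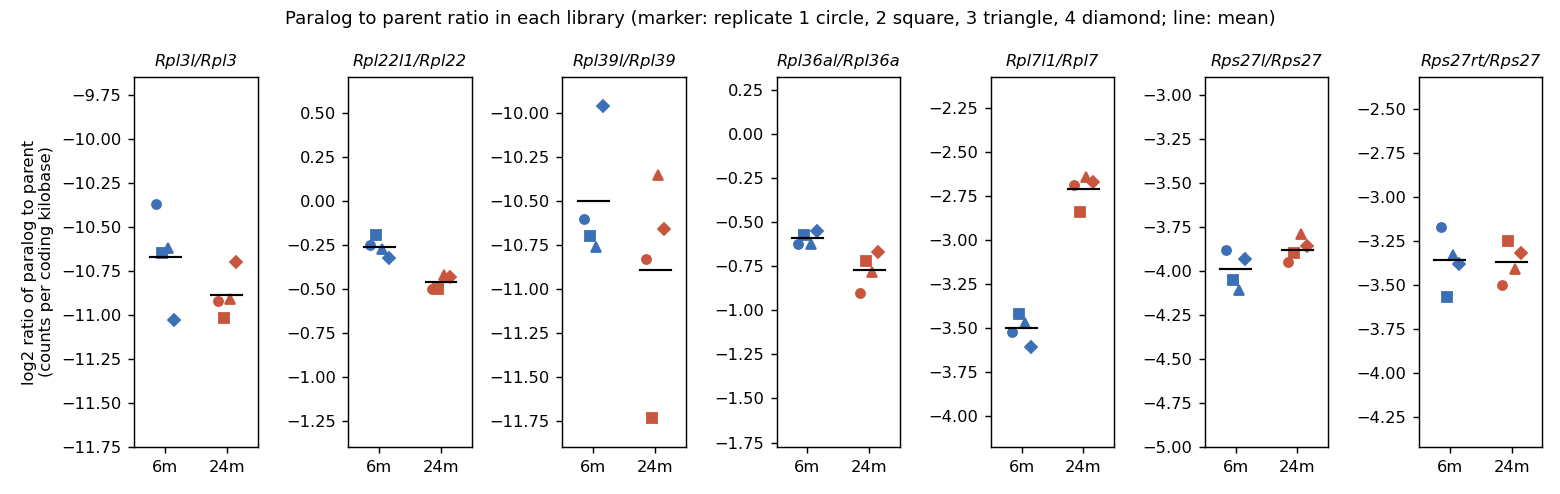
Log2 ratio of paralog to parent, in counts per coding kilobase, for 7 pairs (panels) in each 6m (blue) and 24m (red) library, with the mean as a line. All panels span the same range of log2 units; the ages separate in Rpl22l1/Rpl22, Rpl36al/Rpl36a and Rpl7l1/Rpl7 and overlap in the others.

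Rpl7l1 stood higher against Rpl7 in all aged animals, by a difference that did not pass after adjustment. The proteins are 40.7% identical over their alignment and the coding sequences 53%. Rpl7l1 stood at 8.69%, 9.37%, 9.04% and 8.19% of Rpl7 at 6m and at 15.5%, 13.9%, 16.1% and 15.7% at 24m. No libraries overlapped, and the log2 difference was 0.79 (exact permutation p = 0.0286, adjusted 0.0667, n = 4 each). Rpl7 itself, at 636, 581, 614 and 719 CPM at 6m and 370, 344, 314 and 297 CPM at 24m, was lower by -0.94 ± 0.10 (edgeR adjusted p = 9.1e-05), and by -0.29, under the fold threshold, with the trend over canonical transcript length removed.

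Rpl22l1 and Rpl36al stood lower against their parents in all aged animals, by differences that did not pass after adjustment. Rpl22l1, 70.3% identical to the RNA-binding large subunit protein RPL22, had the highest level against its parent among the paralogs tested. It stood at 83.9%, 87.8%, 83% and 80.2% of Rpl22 at 6m and at 70.6%, 70.8%, 74.9% and 74.4% at 24m, a log2 difference of -0.20 with no overlap (exact permutation p = 0.0286, adjusted 0.0667). In CPM, Rpl22l1 measured 128, 116, 113 and 118 at 6m and 74.2, 55.1, 58.9 and 53.2 at 24m (log2 fold change -0.98 ± 0.11, edgeR adjusted p = 0.000121), a call lost with any of the 4 length trends removed (-0.50 to -0.08). Rpl22 measured 161, 140, 144 and 155 CPM at 6m and 111, 82.3, 83.2 and 75.7 CPM at 24m (-0.77 ± 0.12, adjusted p = 0.000602), and was not called with library totals alone (-0.56) or with the trend over coding length (-0.20) or canonical transcript length (0.10) removed. Rpl36al encodes a protein of 106 residues identical to that of the X-linked Rpl36a, from a coding sequence with 87.7% of bases shared. It stood at 65.1%, 67.3%, 65% and 68.1% of Rpl36a at 6m and at 53.5%, 60.5%, 58.4% and 62.8% at 24m, a log2 difference of -0.18, again with no overlap (exact permutation p = 0.0286, adjusted 0.0667). Rpl36al measured 166, 150, 145 and 178 CPM at 6m and 77.6, 61.7, 58.9 and 54.1 CPM at 24m. Its fold change was among the most negative of the tested members (-1.34 ± 0.12, adjusted p = 4.72e-05). Rpl36a measured 254, 222, 224 and 261 CPM at 6m and 145, 102, 101 and 86.1 CPM at 24m (-1.15 ± 0.15, adjusted p = 0.000239), and lost the call with the trend over coding length (-0.51) or canonical transcript length (-0.24) removed.

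Rps27l, a target of p53, is 96.4% identical to RPS27 in protein and 76.2% in coding bases. Its ratio overlapped between ages, at 6.29% of Rps27 at 6m and 6.81% at 24m as geometric means (exact permutation p = 0.171, adjusted 0.3). In CPM it measured 44.7, 35.9, 34.5 and 43.1 at 6m and 30.1, 17.3, 17.1 and 13.8 at 24m (log2 fold change -1.01 ± 0.22, edgeR adjusted p = 0.00316), a call lost with any of the 4 length trends removed (-0.47 to -0.14). Rps27 measured 656, 592, 596 and 656 CPM at 6m and 467, 258, 237 and 201 CPM at 24m (-1.11 ± 0.23, adjusted p = 0.00255). Rps27rt, a copy on chromosome 9 inside Osbpl10, has a coding sequence that is 100% identical to that of Rps27, so reads there cannot be assigned between them. Its ratio to Rps27 was 9.71% at 6m and 9.67% at 24m (exact permutation p = 0.914). It measured 72.9, 49.8, 59.3 and 62.8 CPM at 6m and 41.2, 27, 22.3 and 20.1 CPM at 24m (-1.14 ± 0.22, adjusted p = 0.00151). Rps27 (-0.45 to -0.25) and Rps27rt (-0.47 to -0.22) also lost the call with each of these trends removed.

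The paralogs known from muscle and testis were barely present. Rpl3l, the striated muscle form of Rpl3 with 76% identity, had 90, 75, 65 and 59 counts at 6m and 74, 40, 45 and 46 at 24m. These are 1.37, 1.06, 1.08 and 0.893 CPM and 0.714, 0.499, 0.54 and 0.527 CPM, with no overlap (log2 fold change -0.94 ± 0.20, edgeR adjusted p = 0.00266). Rpl3l lost the call with the trend over exonic length (-0.39, adjusted p = 0.0818) or canonical transcript length (-0.42, adjusted p = 0.0699) removed. Per coding kilobase, Rpl3l stood at 0.0614% of Rpl3 at 6m and 0.0527% at 24m, with overlap (exact permutation p = 0.257, adjusted 0.36). Skeletal muscle genes were also detected at low levels, with 4 of 6 markers called lower at 24m, against 18.3% of all tested genes. Their summed levels were 29.9 to 33.3 CPM at 6m and 14.8 to 21.2 CPM at 24m. Most of the sum came from Acta1, at a mean of 20.5 CPM at 6m and 11.4 CPM at 24m. Myh4 and Actn3 were not called. The part of muscle in the Rpl3l counts was not tested. Rpl39l, the testis form of the tunnel protein Rpl39 with 94.1% identity, had 12, 10, 8 and 17 counts at 6m and 10, 2, 6 and 4 at 24m. Its fold change was the most negative of all members (-1.52 ± 0.41, adjusted p = 0.00964) but rests on these few counts and lost the call with any of the 4 length trends removed (-0.87 to -0.71, adjusted p = 0.0705 to 0.122). Its ratio to Rpl39 overlapped between ages (exact permutation p = 0.371, adjusted 0.433). Rpl39 measured 296, 246, 244 and 264 CPM at 6m and 184, 106, 102 and 83.7 CPM at 24m (-1.14 ± 0.22, adjusted p = 0.0015), and was not called with the trend over coding length removed (-0.34). The parents of the untested pairs, Rpl10 (-0.89 ± 0.16, adjusted p = 0.00107) and Rps4x (-0.91 ± 0.15, adjusted p = 0.000671), fell with the class. Rpl10 lay between 496 and 653 CPM at 6m and between 243 and 405 CPM at 24m, and Rps4x between 756 and 909 CPM at 6m and between 353 and 571 CPM at 24m. Neither was called with the trend over exonic (-0.47 for Rpl10, -0.37 for Rps4x) or canonical transcript length (-0.13 and -0.20) removed, nor was Rps4x on quantile-normalized counts (-0.56).

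Copies of ribosomal protein genes were lower too. Rpl35rt encodes the same 123 residues as Rpl35 from a coding sequence with 99.7% of bases shared, so reads may not be separable. It measured 62.8, 51.2, 50.6 and 50.4 CPM at 6m and 33, 18.9, 17.3 and 14.5 CPM at 24m. No libraries overlapped (log2 fold change -1.36 ± 0.23, edgeR adjusted p = 0.000847), with -1.19 ± 0.20 for Rpl35, and both lost the call with the trend over canonical transcript length removed (-0.47 and -0.48). Rpl27rt, whose protein is 15.1% identical to RPL27, was at 2.31 CPM or more in 3 young animals and 1.6 in the fourth, overlapping the aged range of 1.1 to 2.09. It was called lower (-0.88 ± 0.29, adjusted p = 0.0221) but lost the call without any 1 of 5 libraries, with library totals alone (-0.69, adjusted p = 0.0618) and with any of the 4 length trends removed (-0.47 to -0.34, adjusted p = 0.139 to 0.26). Of 8 genes named as pseudogenes and left out by the rule, 6 could be tested. All 6 were called lower, among them Rps18-ps5 (-1.59, adjusted p = 5.51e-05), against 18.3% of all tested genes. Whether reads of these copies were kept apart from those of their parent genes is not given in the sources used here. For 63 of the 88 tested members the annotation holds at least 1 pseudogene named after them, up to 24, and their median log2 fold change was -1.07 against -1.06 in the 25 members with none. Members that overlap a gene on the other strand numbered 55 with a median of -1.07, against -1.06 in the other 33. Small nucleolar RNA genes lie within 30 of the tested members, whose median was 0.08 above the -1.08 of the other 58. Rps19bp1 (-0.98 ± 0.13, adjusted p = 0.000234, not called with any of the 4 length trends removed) and Rps23rg1 (-1.31 ± 0.22, adjusted p = 0.000734) fell too, although neither is a ribosomal protein.

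Members with and without a TOP tract at the RefSeq start were lower. The 31 tested members with a tract were all called lower, against 18.3% of all tested genes, at a median of -1.10 (log2). In the 35 tested members with a matched start but no tract, the median was -0.99, with 33 called lower, the exceptions being Rpl4 and Rpl7l1. Rpl17, the other tested member not called, was not among the members with a matched start and is in neither group.

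Other genes of ribosome production and translation gave a mixed picture, to be read against the 18.3% called lower and 25.3% called higher over all tested genes. Fau (-1.08 ± 0.24, edgeR adjusted p = 0.00315) and Rack1 (-0.71 ± 0.18, adjusted p = 0.00761), ribosomal proteins whose symbols fall outside the rule, were both called lower, and neither was called with the trend over canonical transcript length removed. Of 19 other genes with TOP mRNAs, mostly elongation and initiation factors, 8 were called lower and 1 higher, with a median of -0.48. When the trend over canonical transcript length was removed, 5 were called lower and 1 higher, with a median of -0.23. The one that rose was Eif4b, an RNA helicase cofactor, at 90.8 to 112 CPM at 6m and 179 to 219 CPM at 24m (0.95 ± 0.09, adjusted p = 6.01e-05). Of the elongation factors, Eef1b2 (-0.78 ± 0.16), Eef1d (-0.86 ± 0.13) and Eef1g (-0.78 ± 0.18) were called lower, while Eef1a1 (-0.40 ± 0.11) and Eef2 (-0.42 ± 0.13) missed the fold threshold. After removal of the coding length trend, Eef2 was at -0.76, Eef1a1 at -0.53 and Eef1b2 at -0.53. Of 30 ribosome assembly factors, 12 were called lower and 1 higher (median -0.32), with the largest fall in the H/ACA particle protein Nhp2 (-0.96 ± 0.19, adjusted p = 0.0018) and a rise in Utp15 of the small subunit processome (0.72 ± 0.11, adjusted p = 0.000542). Among 6 dedicated chaperones of ribosomal proteins, Bccip (-0.77 ± 0.09, adjusted p = 0.000106) and Pdcd2 (-0.59 ± 0.09, adjusted p = 0.000451) fell and Heatr3 rose (0.69 ± 0.11, adjusted p = 0.000554). The chaperones' median was -0.38, and 0.03 with the trend over canonical transcript length removed, when none of the 6 was called.

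RNA polymerase I, which transcribes the ribosomal RNA genes, had 5 of 14 subunit and factor genes called lower (18.3% of all tested genes) and 1 higher (25.3%), with a median of -0.37. Polr1f fell most (-1.56 ± 0.17, adjusted p = 8.64e-05) and the initiation factor Rrn3 rose (0.85 ± 0.10, adjusted p = 0.000159). The 14 regulators of ribosomal protein synthesis differed, with 7 called higher and 2 lower and a median of 0.61. The 7 were Mtor (0.85 ± 0.14, adjusted p = 0.000758) and Rptor (0.89 ± 0.10, adjusted p = 0.00012) of mTOR complex 1, its inhibitor Tsc1 (1.26 ± 0.20, adjusted p = 0.000662), the S6 kinase gene Rps6kb1 (0.66 ± 0.19, adjusted p = 0.011), the translational repressor Eif4ebp2 (1.51 ± 0.16, adjusted p = 8.33e-05), Larp4 and Larp4b. Larp4 stood at 2.50 ± 0.36 (adjusted p = 0.000392). The largest change was in Larp4b, a poly(A) mRNA-binding protein, from 1.56 to 3.59 CPM at 6m to 7.25 to 20.8 CPM at 24m (2.52 ± 0.35, adjusted p = 0.000305). Rps6kb2 (-0.95 ± 0.12, adjusted p = 0.000209) and Eif4ebp1 (-0.59 ± 0.14, adjusted p = 0.00447) fell. With the trend over coding length removed, the counts were 5 higher and 1 lower among the regulators and 0 higher and 8 lower among the assembly factors. The named genes Mtor (0.41), Rptor (0.42), Rps6kb1 (0.48), Utp15 (0.54), Heatr3 (0.44), Nhp2 (-0.48), Pdcd2 (-0.55) and Eif4ebp1 (0.02), and Fau (-0.56) from the ribosomal proteins outside the rule, then lay under the fold threshold. With the trend over canonical transcript length removed, the regulators had 4 higher and 3 lower, with a median of 0.17.

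Markers of cell types were read beside the members, and their calls against 18.3% lower and 25.3% higher over all tested genes. Red blood cell and skeletal muscle genes were also lower, with medians of -1.42 and -0.89 (log2). All 5 red blood cell genes (the haemoglobin chains and Alas2) were called lower, and their summed level went from 5426 to 7605 CPM at 6m to 1242 to 4156 CPM at 24m, the upper value being 24m replicate 1. Choroid plexus markers, led by Ttr, summed to 1787 to 3218 CPM and 829 to 2265 CPM, with 1 of 8 called lower and 2 higher. Endothelial markers summed to 76.3 to 111 CPM and 45.9 to 70.7 CPM, with 2 lower and 2 higher. Neuronal markers summed to 3934 to 4345 CPM and 4429 to 4666 CPM (1 of 8 lower, 2 higher), and astrocyte markers to 2892 to 3826 CPM and 2847 to 3844 CPM (1 lower, 5 higher). Microglial markers (456 to 487 and 453 to 631 CPM) and oligodendrocyte markers (3446 to 4306 and 3745 to 4305 CPM) each had 2 of 8 called higher and 0 lower. Germ cell markers of the testis summed to 5.69 to 7.42 CPM and 3.9 to 4.38 CPM, mostly from Sycp3, with the protamine genes Prm1 and Prm2 at or below 0.162 CPM in every library. Of 4 germ cell markers tested, 1 was called lower, Sycp3 (-0.95 ± 0.14, edgeR adjusted p = 0.000379), and 0 higher. No marker of any list was at 0 in all libraries, and all brain cell types named were detected at both ages. The part of blood, muscle, choroid plexus or other cells in the members' fall was not tested.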

How the data were processed

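The deposited table holds raw counts per Ensembl gene. According to the submitters' processing notes and the study's methods, the authors prepared directional poly(A) libraries, trimmed reads with Trim Galore 0.4.11, aligned them to GRCm39 with HISAT2 2.1.0 and counted them with featureCounts, with no normalization in the deposited counts. Strand use and the treatment of multimapping reads were not given in the sources used here. Symbols, coordinates and coding lengths were taken from GENCODE vM39 (GRCm39), and the 149 listed genes with no match held 0.312% of counts. Coding length is that of 1 consensus transcript without the stop codon, and it replaced the planned exonic length in the paralog ratios, which shifts all libraries of a pair by the same constant.

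The 16730 genes above 5 counts in 4 or more libraries were tested with edgeR 4.0.16 (R 4.3.3, TMM factors, quasi-likelihood, age as the only term), adjusted by Benjamini-Hochberg over all genes. CPM are counts per 1e+06 of the TMM-scaled library size. Alternatives used DESeq2 1.42.0, limma-voom (limma 3.58.1), other scalings, filters and thresholds, length and GC trends smoothed with a span of 0.3, single libraries left out and a replicate block. Pairs were tested with scipy 1.17.1 and aligned with Biopython 1.88. Tested on simulated data (24m against 6m, 16730 genes, 200 changed by a log2 value of 1), edgeR recovered 74.5%, with 13 unchanged genes called. Each simulated gene was drawn independently, so shifts shared by many genes of a library, as in 24m replicate 1, were not reproduced. Replicates of an age differed beyond sampling noise (chi-square of 8.17 to 424 per degree of freedom over 12 pairs of libraries), so each counted once.

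Members and gene lists were chosen with earlier results of these data known. Named in full were the 5 tested members at each end of the fold changes, those not called, paralogs with parents, the stalk genes, Rpsa and those apart from the class, and of other lists the largest change and up to 3 genes against its direction. Further genes of those lists were named after their values had been seen. A gene of these lists is not reported here.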

Additional observations from a re-analysis of the deposited data

Results flagged for a closer look

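A search for a single library far from the other 3 of its age covered 70 groups, made of each named gene, the summed share and the paralog ratios at both ages. It found 1 such library, where chance alone would pick out about 1 in 20 groups. Rpl35rt, the copy of Rpl35, stood at 62.8 CPM in 6m replicate 1, while the other 3 young animals lay between 50.4 and 51.2 CPM, a gap of 0.939 of the whole range of the group. All 4 values lay above the 24m values.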

How the results depend on the processing

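No member was called higher under any alternative. The count called lower stayed within 1.5 times of 85 in all alternatives except a fold threshold of 1 (54), the removal of the trend over coding length (52) and over canonical transcript length (25). The median moved to -0.61 and -0.40 with these trends removed and to -0.63 with the coding length trend of the other genes. Leaving out 1 library gave 84 to 86 called lower, 0 higher, a median of -1.28 (without 24m replicate 1) to -0.94, a difference in summed share of -2.93 to -2.31 percentage points, and 1 (without 24m replicate 4) to 2 genes apart from the class. In the paralog ratios it gave 0.76 to 0.84 for Rpl7l1, -0.23 to -0.18 for Rpl22l1, -0.21 to -0.13 for Rpl36al, -0.34 to -0.12 for Rpl3l, -0.57 to -0.11 for Rpl39l, 0.07 to 0.15 for Rps27l and -0.08 to 0.06 for Rps27rt. Replicate numbers did not pair the animals (correlations of same-numbered deviations of 0.271, 0.143, 0.0778 and -0.348), and with the number as a replicate block 86 were called lower with a median of -1.11, with Rpl17 called. The sign changed for Rpl22 with the trend over canonical length removed (0.10) and for Rpl7l1 with library totals alone (0.07), with the trends over exonic (0.01), coding (0.07, also from the other genes alone, 0.07) and canonical length (0.43, adjusted p = 0.00073, within a range over its alternatives of 0.00073 to 0.947). Over 26 tested named genes and their alternatives, 522 of 596 values kept direction and call, 62 lost the call and 6 gained it. Of the calls counted in the other gene lists, 238 of 276 stayed within 1.5 times. The cause of these changes was not tested. Depth limits Rpl39l, Rpl10l and Rplp1rt, and shared sequence limits Rps27rt and Rpl35rt.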
